A study of Mus musculus with 6 samples.

Results

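The 10 genes described here encode transcription factors that shape the mesenchyme of the lung, the connective tissue compartment from which lung fibroblasts come. They are Tbx2, Tbx3, Tbx4, Tbx5, Foxf1, Tcf21, Gata6, Meox2, Twist1 and Prrx1, chosen by name and matched to array probes by RefSeq accession. All 10 had a probe, 11 probes in all, because Prrx1 had 2, and 9 of the 10 genes were bright enough to be tested among 12470 tested genes. They were followed in cultured lung fibroblasts of Mmp19 knockout mice (3 arrays) and of wild-type mice (3 arrays). Mmp19 is a matrix metalloproteinase, an enzyme that cleaves proteins of the extracellular matrix. The mice of both groups received bleomycin (0.08 units), an antitumour drug used to provoke lung fibrosis, through the trachea, so neither group is an uninjured control. The fibroblasts were isolated at day 21, cultured in FBM medium and incubated for 72 hours. Every sample is labelled female and 11 weeks old, and the labels say neither how the knockout allele was made nor how many mice went into a culture. The series describes independent experiments, and nothing else says that arrays of 1 group came from separate animals, so p-values measure the spread between these arrays.

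During lung development the T-box factors Tbx4 and Tbx5 act in the mesenchyme around the lung bud and favour the expression of Fgf10, the growth factor that draws the epithelium into branches. Tbx2 and Tbx3 are mostly repressors that keep this mesenchyme dividing. Foxf1 is a forkhead factor that responds to Hedgehog signals from the epithelium. Tcf21, a basic helix-loop-helix factor, marks lipid-storing fibroblasts and their progenitors, and Gata6 is a zinc finger factor of lung epithelium, smooth muscle and mesothelium. Twist1, another basic helix-loop-helix factor, and the homeobox factors Prrx1 and Meox2 are active in mesenchyme of many organs. In the mouse genome Tbx2 and Tbx4 lie side by side on chromosome 11 with 0 annotated genes between them, and Tbx3 and Tbx5 lie on chromosome 5 with 0 protein-coding genes between them.

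Of the 10 genes, 5 had a start-site window in the RefSeq promoter table (build GRCm38.p6). The windows of Tbx4 and Tcf21 are shown because these genes had the largest positive changes, and that of Twist1 because its change was nearest to 0. Each runs 5′ to 3′ along the gene's strand for 300 bases. Capitals mark matches on either strand to any of 4 motifs. CANNTG is the E-box, which basic helix-loop-helix factors such as Tcf21 and Twist1 bind. GGTGTGA is the half-site that T-box factors such as Tbx4 bind. GATAA is the site of GATA factors such as Gata6. TATAAA is the TATA box of some core promoters.
Tbx4 (chr11:85896515-85896814, plus strand): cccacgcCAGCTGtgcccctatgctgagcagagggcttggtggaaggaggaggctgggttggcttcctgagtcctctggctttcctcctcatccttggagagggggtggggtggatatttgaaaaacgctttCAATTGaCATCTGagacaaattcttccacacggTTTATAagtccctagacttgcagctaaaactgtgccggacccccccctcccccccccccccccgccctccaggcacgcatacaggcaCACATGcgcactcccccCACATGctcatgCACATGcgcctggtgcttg
Tcf21 (chr10:22820094-22820393, minus strand): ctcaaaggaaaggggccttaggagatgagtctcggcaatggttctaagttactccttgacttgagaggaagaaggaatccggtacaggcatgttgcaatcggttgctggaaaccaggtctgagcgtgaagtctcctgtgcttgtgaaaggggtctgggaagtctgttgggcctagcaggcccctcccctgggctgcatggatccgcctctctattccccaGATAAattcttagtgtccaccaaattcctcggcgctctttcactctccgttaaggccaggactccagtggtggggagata
Twist1 (chr12:33957421-33957720, plus strand): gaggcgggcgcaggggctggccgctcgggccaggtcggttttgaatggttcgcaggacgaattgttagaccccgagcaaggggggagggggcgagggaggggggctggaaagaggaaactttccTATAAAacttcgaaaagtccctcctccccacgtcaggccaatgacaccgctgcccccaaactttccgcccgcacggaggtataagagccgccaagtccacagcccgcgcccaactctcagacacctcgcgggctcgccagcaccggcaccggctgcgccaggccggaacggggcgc

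The Tbx4 window held 6 E-boxes and 1 TATA box, the Tcf21 window 1 GATA site and 0 E-boxes, and the Twist1 window 1 TATA box and 0 E-boxes; marked stretches that adjoin or overlap run together. Of 32851 windows of the same length in the table, 72.3% held an E-box, 25.4% a GATA site, 13.6% a TATA box and 3.98% a T-box half-site. None of the 3 windows held the T-box half-site. CG dinucleotides, which are frequent in the start sites of many developmental genes, numbered 8 in the Tbx4 window, 8 in the Tcf21 window and 27 in the Twist1 window, against a median of 7. These matches describe letters only.

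Values are log2 of the background-subtracted intensity, relative to the 75th percentile of the same array, so that 0 is the intensity at that percentile. Levels of different probes are not comparable. The 75th percentile itself was 138 to 328 in knockout and 190 to 290 in wild-type arrays, 43.1% to 52.5% of spots in knockout and 44.6% to 54.5% in wild-type arrays were well above background, and the number of arrays limits the precision. Wild-type replicate 2 stood apart, with correlations of 0.939 and 0.960 to the other wild-type arrays. The probe of Mmp19 was well above background on 0 knockout and 3 wild-type arrays, which puts the knockout signal at least 5.33-fold lower (limma adjusted p = 0.016). The sources used here do not say whether this probe lies in the deleted part. The female label went against the arrays: Xist, which silences an X chromosome in female cells, stood well above background on 3 knockout and 0 wild-type arrays, and the Y-linked Eif2s3y on all 6, with values of 2.19, -1.77 and 0.67 in knockout and 2.92, 4.18 and 3.62 in wild-type replicates 1 to 3. Sex and genotype cannot be told apart in what follows. Of 10 fibroblast markers, 10 were well above background on every knockout array and 9 on every wild-type array. Markers of other lung cells were mixed: of 16 epithelial markers 11 were bright enough to be tested, among them Sftpc, Scgb1a1, Sftpb and Cdh1, and of 11 endothelial markers 7 were, among them Pecam1, Cdh5, Kdr and Vwf, whereas Epcam, Nkx2-1, Cldn4, Cldn18, Tek, Tie1, Emcn and Erg were well above background on 0 of 6 arrays.

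In the knockout fibroblasts, none of the 9 tested factors passed the test against wild type after adjustment over all probes (limma, 0 of 9 at an adjusted p under 0.05), where 4.80% of all tested genes passed (3.30% higher and 1.49% lower) and 4.64% of all probes. At an unadjusted p under 0.05 there were 4 of 9, namely Tbx4, Tcf21 and Foxf1 with positive changes and Tbx5 with a negative one, where 21.8% of all genes did. The signals of the groups did not overlap for 4 of 9 (Tbx4, Foxf1, Tcf21 and Gata6, all higher in the knockout). Among all tested genes 31.0% did not overlap (21.2% higher and 9.79% lower). Foxf1 and Tcf21, which are in both counts of 4, entered the test through the knockout arrays alone, where they are higher. Their part in these counts is not independent of that filter. Changes were positive for 7, among them Twist1 at 0.04, and negative for 2. The median log2 change was 0.39, against 0.08 over all tested genes. That median is the value of the brighter Prrx1 probe, and the dimmer Prrx1 probe had a change of -0.37. With slide as a block, 0 of 9 passed as well, where 385 of 24214 probes did. The count of 0 depended on how arrays were weighted. With limma's array weights 7 of 9 passed, all but Twist1 and Prrx1, where 14904 of 24214 probes passed. That weight estimate stopped before it converged. With weights estimated gene by gene, an alternative added after that result was seen, 4 passed (Tbx3, Tbx4, Foxf1 and Tcf21). Of the 24214 probes, 5068 passed there.

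**Figure D1:**
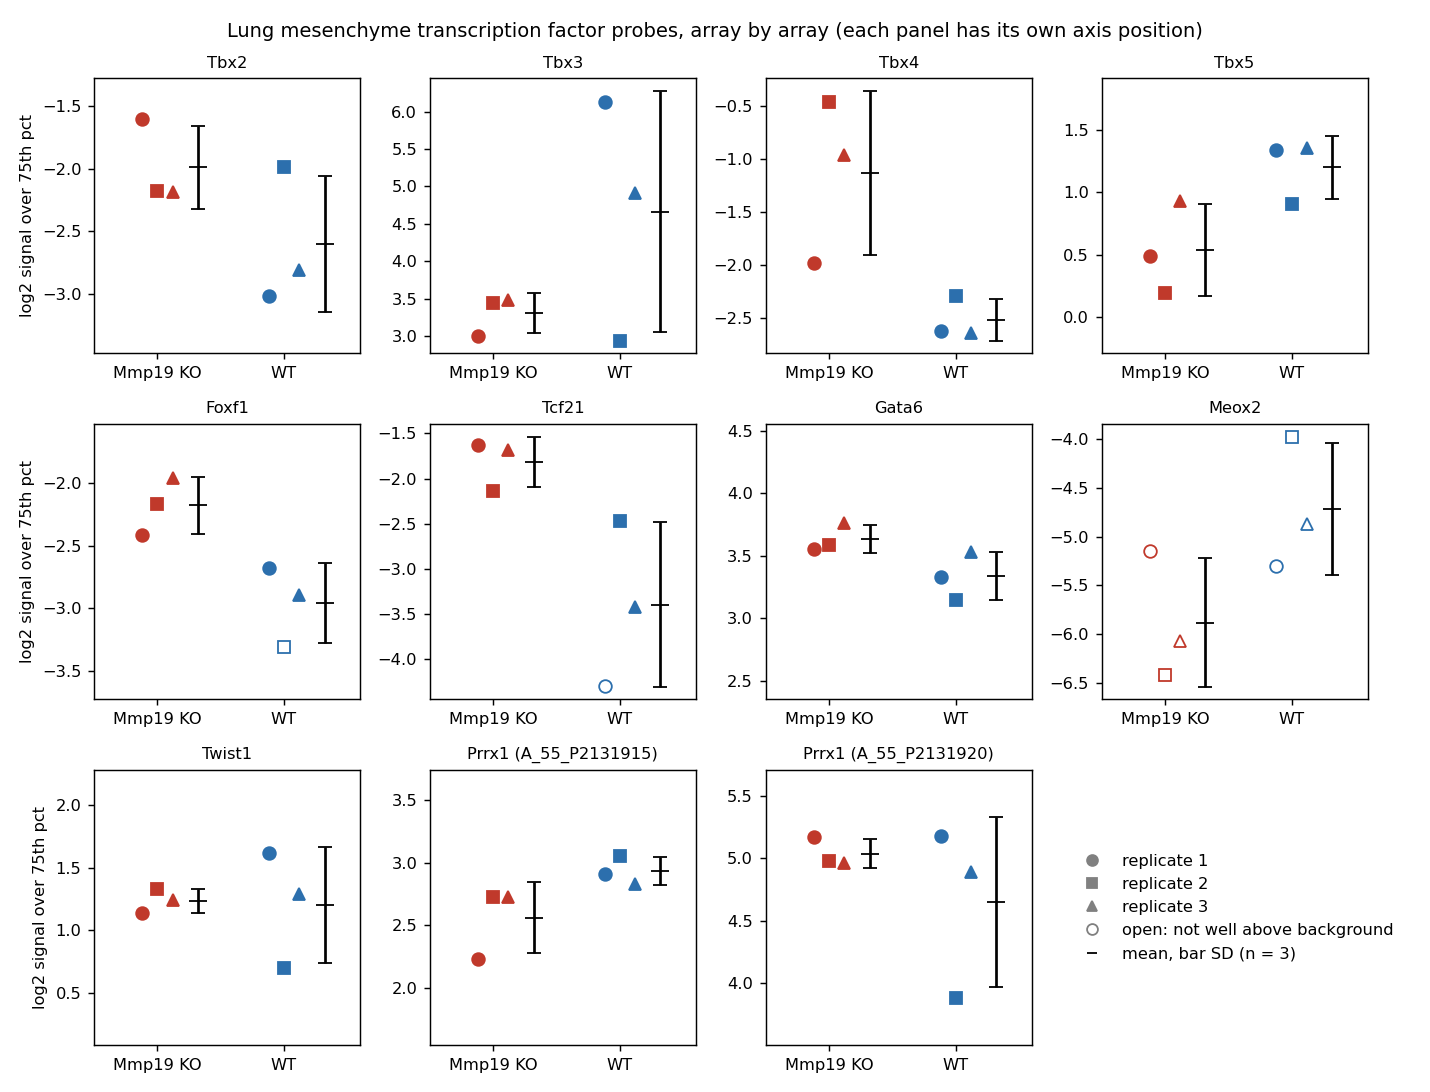
Log2 signal relative to each array's 75th percentile (y axis) for the 11 probes of the 10 factors, with Mmp19 KO arrays in red and WT arrays in blue; shapes are replicate numbers, open symbols mark arrays where the probe was not well above background, and bars are mean and SD of 3 arrays. Tbx4, Foxf1, Tcf21 and Gata6 are separated between the groups, Tbx3 spreads from 2.94 to 6.13 within WT, and every Meox2 symbol is open.

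Tbx4, an activator of lung bud outgrowth, had values of -1.98, -0.45 and -0.96 in knockout replicates 1 to 3, and -2.63, -2.29 and -2.64 in wild-type replicates 1 to 3. The wild-type arrays lay close together, whereas knockout replicate 1 lay close to them and the other two knockout arrays well above. The log2 change was 1.39 ± 0.39 (SE, n = 3 per group), a 2.62-fold higher mean in the knockout, with a 95% interval from 0.46 to 2.33 and an adjusted p of 0.104 (limma). It was positive on each slide, at 0.65, 1.84 and 1.69. Without knockout replicate 1 it was 1.82 and passed (limma adjusted p = 0.0391), and with normexp background correction it was 0.85. Without knockout replicate 2 it was 1.05 and did not pass (limma adjusted p = 0.190).

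Tbx5, which shares the lung bud role of Tbx4, leaned the other way. Its values were 0.49, 0.19 and 0.93 in knockout and 1.34, 0.91 and 1.36 in wild-type replicates. Knockout replicate 3 and wild-type replicate 2 nearly coincided, so the groups overlapped. The log2 change was -0.66 ± 0.26 (SE, n = 3 per group; 95% interval -1.29 to -0.03; limma adjusted p = 0.214), with -0.85, -0.71 and -0.43 on the 3 slides.

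Tbx3, a repressor, had the most uneven values of the 9 tested genes. Knockout replicates gave 3.00, 3.45 and 3.48, and wild-type replicates 6.13, 2.94 and 4.92. The knockout arrays were alike, while wild-type replicate 2 lay below all of them and the other two wild-type arrays above. Its residual SD, 1.16, exceeded that of 96.0% of tested probes. The log2 change was -1.35 ± 0.74 (SE, n = 3 per group; 95% interval -3.11 to 0.40; limma adjusted p = 0.345), and it was -3.13, 0.51 and -1.44 on slides 1 to 3. Without wild-type replicate 2 it was -2.22 and passed (limma adjusted p = 0.0309), and without wild-type replicate 1 it was -0.62 (limma adjusted p = 0.599).

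Tbx2, the close relative of Tbx3, had values of -1.60, -2.17 and -2.19 in knockout and -3.02, -1.99 and -2.81 in wild-type replicates. Wild-type replicate 2 again stood away from its group, here above both other wild-type arrays and among the knockout ones. The log2 change was 0.61 ± 0.33 (SE, n = 3 per group; 95% interval -0.17 to 1.40; limma adjusted p = 0.338). It was 0.20 with normexp; leaving out wild-type replicate 1 gave 0.41, and leaving out replicate 2 gave 0.92.

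The neighbouring T-box genes thus had changes of the same sign, positive for Tbx2 and Tbx4 on chromosome 11 and negative for Tbx3 and Tbx5 on chromosome 5. The difference between the means of the pairs, which needs no scaling between arrays, was -3.54, -3.14 and -3.78 log2 units in knockout arrays and -6.56, -4.06 and -5.86 in wild-type arrays. The groups did not overlap, and knockout exceeded wild type by 2.01. Tbx4 minus Tbx5 was -2.47, -0.65 and -1.88 in knockout and -3.96, -3.20 and -3.998 in wild-type arrays, again without overlap, a difference of 2.05. These combinations were picked after the values were seen and carry no test. Among single tested genes 31.0% did not overlap, and no such share was computed for differences between genes. Within a chromosome the pairs overlapped: Tbx4 minus Tbx2 averaged 0.86 ± 1.10 in knockout and 0.08 ± 0.36 in wild type, and Tbx5 minus Tbx3 averaged -2.77 ± 0.42 in knockout and -3.46 ± 1.38 in wild type (SD, n = 3 each). Of the protein-coding genes flanking these pairs, Bcas3 beside Tbx2 had a change of 0.34 ± 0.32 (limma adjusted p = 0.572) and Rbm19 beside Tbx5 one of -0.46 ± 0.21 on its tested probe (SE, n = 3 per group; limma adjusted p = 0.263). Brip1 and Med13l were not bright enough to be tested.

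**Figure D2:**
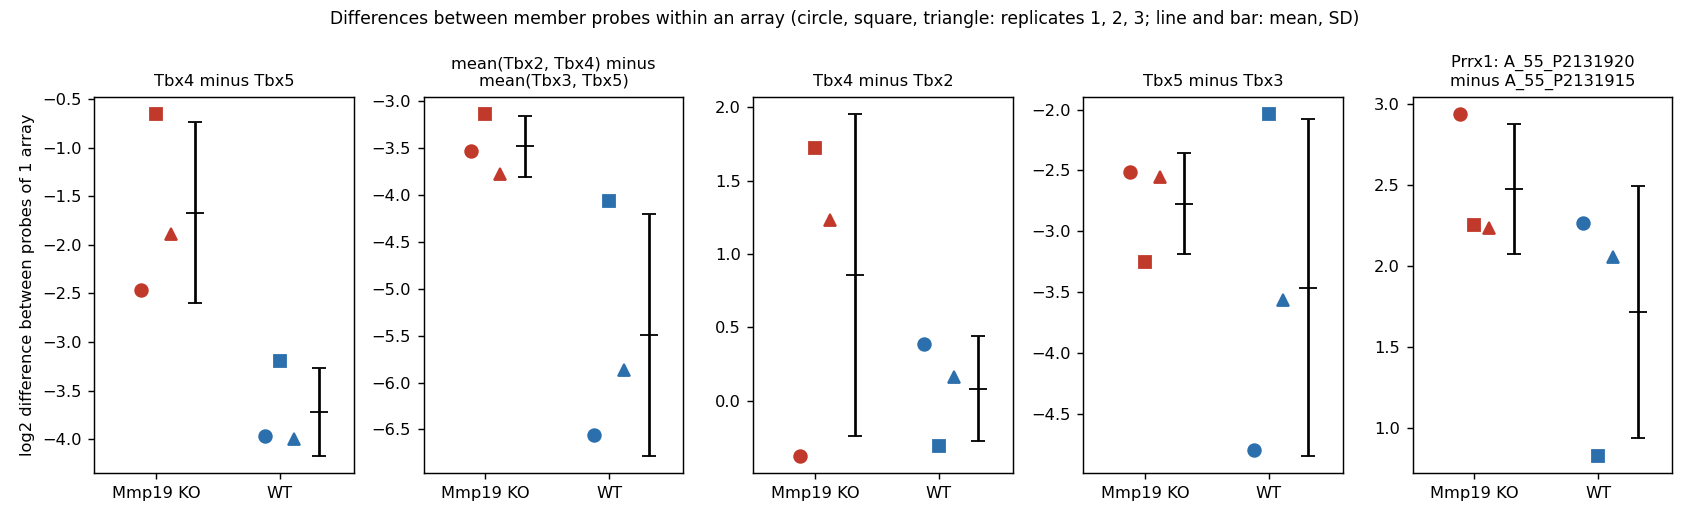
Log2 differences between 2 probes or pairs of probes of the same array (y axis), for Mmp19 KO (red) and WT (blue) arrays; shapes are replicates and bars mean and SD of 3 arrays. Tbx4 minus Tbx5 and the chromosome 11 pair minus the chromosome 5 pair are higher in all 3 KO arrays. These combinations were picked after the values were seen and were not tested. The other 3 differences overlap between the groups.

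Tcf21, the factor of lipid-storing fibroblasts, had the largest change of the 9, a log2 change of 1.58 ± 0.45 (SE, n = 3 per group; 95% interval 0.50 to 2.66; limma adjusted p = 0.108), a 2.99-fold higher mean in the knockout. Its values were -1.63, -2.14 and -1.68 in knockout and -4.29, -2.48 and -3.42 in wild-type replicates. The knockout arrays were tightly grouped, and the wild-type arrays spread widely below them. Wild-type replicate 1 was not well above background there, with a processed intensity of 9.67. The gene entered the test through the knockout arrays alone. The change was 2.67, 0.34 and 1.74 on slides 1 to 3. It passed without wild-type replicate 2 (2.04, limma adjusted p = 0.0242), and with normexp background correction it was 0.57. Without wild-type replicate 1 it was 1.13 and did not pass (limma adjusted p = 0.180).

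Foxf1, the Hedgehog-responsive forkhead factor, had values of -2.41, -2.16 and -1.95 in knockout and -2.68, -3.31 and -2.89 in wild-type replicates. All knockout arrays lay above all wild-type arrays, the closest pair being the replicate 1 arrays of slide 1. Wild-type replicate 2 was not well above background, and this gene too entered the test through the knockout arrays alone. The log2 change was 0.78 ± 0.25 (SE, n = 3 per group; 95% interval 0.20 to 1.37; limma adjusted p = 0.133), and 0.32 with normexp.

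Gata6 was the steadiest of the factors. It had values of 3.56, 3.59 and 3.76 in knockout and 3.33, 3.15 and 3.53 in wild-type replicates. The groups only just separated, and the residual SD, 0.16, was above that of 9.26% of tested probes. The log2 change was 0.30 ± 0.20 (SE, n = 3 per group; limma adjusted p = 0.441), and its 95% interval, -0.18 to 0.78, bounds the change at 0.78 upward. In the authors' log2 values the change was 0.15.

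Twist1 had the smallest change, 0.04 ± 0.27 (SE, n = 3 per group; 95% interval -0.61 to 0.68; limma adjusted p = 0.958). Knockout replicates gave 1.14, 1.33 and 1.24, inside the wild-type values of 1.62, 0.70 and 1.29. The 3 slides gave -0.48, 0.63 and -0.04, and the sign turned in 9 of 25 alternatives.

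Prrx1, a homeobox factor of activated mesenchyme, was read by 2 probes of different RefSeq transcripts, and they leaned in opposite directions. The brighter, A_55_P2131920, had 5.17, 4.98 and 4.96 in knockout and 5.18, 3.88 and 4.89 in wild-type replicates, a log2 change of 0.39 ± 0.35 (SE, n = 3 per group; limma adjusted p = 0.567). Leaving out wild-type replicate 1 gave a change of 0.65 and leaving out replicate 2 one of 0.0047, and it was 0.0093 for the mean of both probes. The dimmer, A_55_P2131915, had 2.23, 2.73 and 2.73 in knockout and 2.91, 3.05 and 2.83 in wild-type replicates, all knockout values lower, with a log2 change of -0.37 ± 0.22 (SE, n = 3 per group; limma adjusted p = 0.387). The brighter minus the dimmer probe was 2.94, 2.25 and 2.24 in knockout and 2.27, 0.83 and 2.06 in wild-type arrays, so the groups overlapped.

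Meox2, a homeobox factor of mesoderm and vessels, was not well above background on any of the 6 arrays and was not tested. Its processed intensities were 3.90, 3.81 and 3.65 in knockout and 4.80, 13.5 and 9.92 in wild-type arrays. Values not well above background are not ranked here.

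**Figure D3:**
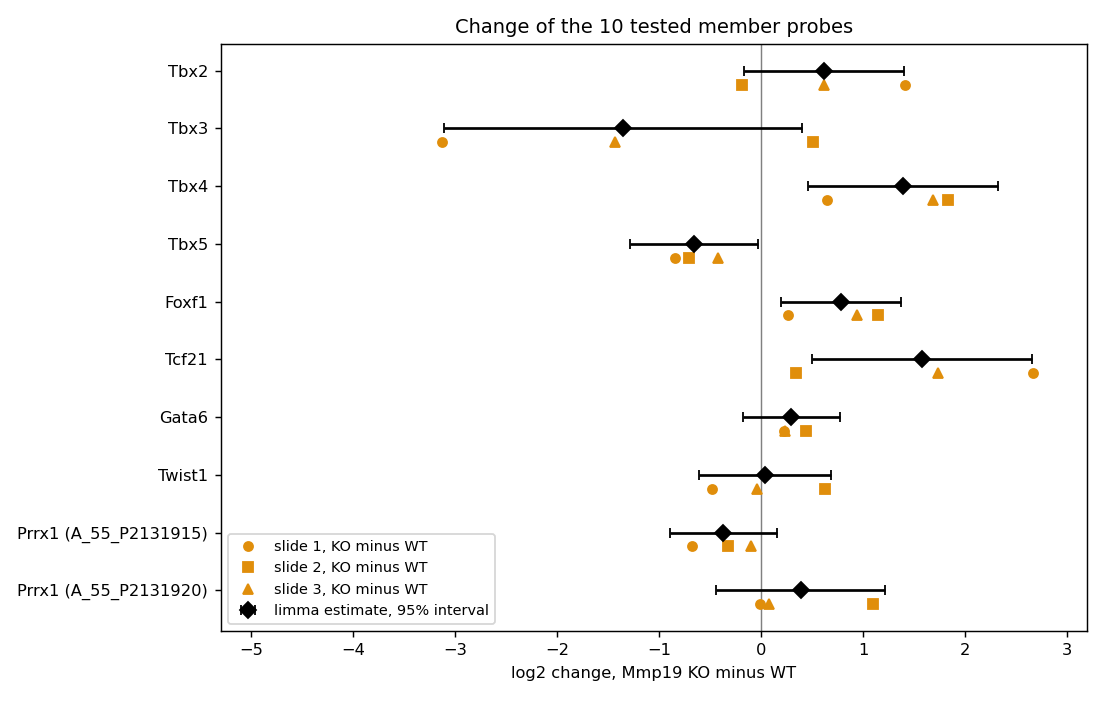
Log2 change, Mmp19 KO minus WT (x axis), for the 10 tested probes: black diamonds are limma estimates with 95% intervals and orange symbols the difference on each slide. The intervals of Tbx4, Tbx5, Foxf1 and Tcf21 leave out 0 before adjustment, and the slides disagree in sign for Tbx2, Tbx3, Twist1 and the brighter Prrx1 probe.

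The nearest relatives of several factors were also measured. Foxf2, the sister of Foxf1, had a change of -0.97 ± 0.28, Twist2 of -0.68 ± 0.31 and Prrx2 of -0.70 ± 0.42 on the log2 scale (SE, n = 3 per group; limma adjusted p = 0.114, 0.272 and 0.381), each negative and none past the threshold. Within arrays, Foxf1 minus Foxf2 was -4.83, -4.80 and -4.14 in knockout and -6.42, -6.18 and -6.42 in wild-type arrays, a difference of 1.75 between groups that did not overlap. Twist1 minus Twist2 was -1.45, -1.76 and -1.49 in knockout and -2.19, -2.17 and -2.49 in wild-type arrays, again without overlap, a difference of 0.71 with a change of 0.04 in Twist1 itself. The brighter Prrx1 probe minus Prrx2 was 1.53, -0.22 and 0.56 in knockout and -0.27, -0.84 and -0.30 in wild-type arrays, barely separated. The dimmer Prrx1 probe, whose change was -0.37, was not set against Prrx2. Gata6 minus Gata4 averaged 5.63 ± 0.11 in knockout and 5.75 ± 0.86 in wild type (SD, n = 3 each), with overlap. These pairs were chosen after the values were seen and were not tested. Among single tested genes 31.0% did not overlap, and the share among differences of gene pairs was not computed. The separations are therefore given as a description only.

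Among 34 relatives from the T-box, forkhead, GATA, homeobox and helix-loop-helix families, 21 were tested. Of these 0 rose and 1 fell, where 4.80% of all tested genes passed, and the median log2 change was -0.11. The 1 that fell was Gata2, a GATA factor known from blood and endothelial cells, with 1.28, 0.33 and 1.02 in knockout and 3.17, 2.56 and 3.17 in wild-type replicates. All knockout arrays lay below all wild-type arrays, and the change of -2.09 ± 0.32 (SE, n = 3 per group) passed in limma (adjusted p = 0.0214) and with slide as a block (limma adjusted p = 0.035). The count of 1 became 0 without knockout replicate 3, wild-type replicate 1 or wild-type replicate 3, and with no filter on dim probes. Leaving out wild-type replicate 2 gave 2. Of 24 partners and inhibitors, such as the E proteins that pair with Tcf21 and Twist1, the Id proteins that block them and the GATA cofactors, 23 were tested and 0 passed, against 4.80% of all genes. Their smallest p values were those of Zfpm1, a GATA cofactor, at 0.84 ± 0.37, and Meis2, a homeobox cofactor, at 0.47 ± 0.21 (SE, n = 3 per group; limma adjusted p = 0.256 and 0.270). Of 54 other mesenchymal transcription factors 40 were tested, 0 rose and 1 fell, where 4.80% of all tested genes passed. With slide as a block 1 rose as well, Tshz2, a zinc finger factor named here after its values were seen, at 2.33 (limma adjusted p = 0.049, against 0.0699 without the block). The number that fell was 3 without wild-type replicate 2, 2 with 4 other scalings or normalizations and 0 with normexp. It was also 0, of 33 tested, with probes detected on all 6 arrays.

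Of 44 ligands, receptors and signal readouts of the lung mesenchyme, 32 were tested, 6 rose and 0 fell, against 3.30% higher among all genes, with a median log2 change of 0.74. Bmp4, a bone morphogenetic protein of the distal lung bud, had 3.42, 2.87 and 3.09 in knockout and 0.91, 1.32 and 1.25 in wild-type replicates, a rise of 1.97 ± 0.24 (SE, n = 3 per group; limma adjusted p = 0.0114). Fgf9, a growth factor of the mesothelium, rose by 2.43 ± 0.34 and Spry1, an inhibitor of growth factor signalling, by 1.51 ± 0.27 (SE, n = 3 per group; limma adjusted p = 0.0178 and 0.031). In wild type, Fgf9 was well above background on 1 of 3 arrays. The count of 6 changed with single arrays left out. It was 0 without knockout replicate 3 and 1 without wild-type replicate 3, where all probes past the threshold fell from 1124 to 107 and 116. It was 2 without knockout replicate 2 or wild-type replicate 1, and 5 without knockout replicate 1. Without wild-type replicate 2, 7 rose and 1 fell. With normexp the count was 3, and with no filter on dim probes 1. With slide as a block 2 of the 6 passed, and Bmp4 (limma adjusted p = 0.0536) and Spry1 (0.072) did not. Fgf10, the gene that Tbx4 and Tbx5 activate, named here after its values were seen, had 2.72, 3.55 and 3.09 in knockout and 2.91, 1.32 and 2.75 in wild-type replicates, with overlap and a change of 0.80 ± 0.46 (SE, n = 3 per group; 95% interval -0.30 to 1.89; limma adjusted p = 0.369).

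Of 51 genes reported as targets of the factors, 46 were tested, of which 6 rose and 1 fell, where 4.80% of all tested genes passed. The median log2 change was 0.31. Itga11, a collagen-binding integrin, rose by 4.34 ± 0.39 and Myh11, smooth muscle myosin, by 2.98 ± 0.35 (SE, n = 3 per group; limma adjusted p = 0.00439 and 0.0109). Bmp4 and the collagen gene Col1a1 (1.47 ± 0.26; limma adjusted p = 0.0307) were among the other 4, and the 1 that fell was Plin2, a lipid droplet protein, by 0.95 on the log2 scale (limma adjusted p = 0.0378), named after its values were seen. With slide as a block 2 of the 7 passed. The 7 became 1 without knockout replicate 3 or wild-type replicate 3, 3 without knockout replicate 1 or wild-type replicate 1, 4 without knockout replicate 2 and 11 without wild-type replicate 2. Cdkn1a, a cell-cycle inhibitor that Tbx2 and Tbx3 repress in other settings, had a change of 0.13 ± 0.31 (SE, n = 3 per group; 95% interval -0.61 to 0.86; limma adjusted p = 0.850). In wild type, Myh11 was well above background on 2 of 3 arrays. Myh11, Col1a1 and Bmp4 also stand on other lists, so these counts overlap.

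**Figure D4:**
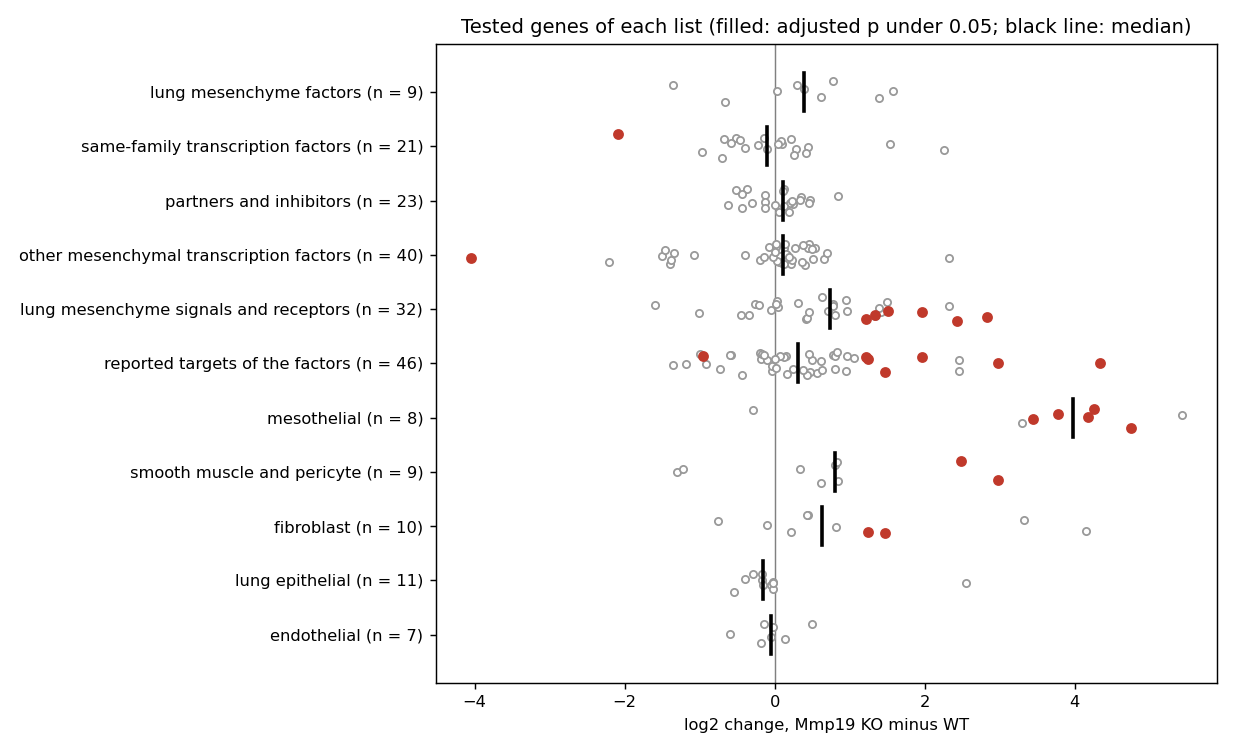
Log2 change, Mmp19 KO minus WT (x axis), of each tested gene in the lung mesenchyme factors and in lists of related genes and cell type markers; filled red symbols passed at an adjusted p under 0.05 and black lines are medians. The factors have 0 filled symbols, the signals and receptors 6 higher, and the mesothelial markers a median of 3.98.

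Markers of another cell type moved with the groups. Among all tested genes 3.30% rose and 1.49% fell past the threshold, to be set beside each count here. Of 8 tested mesothelial markers, genes of the cell layer that covers the lung, 5 rose and 0 fell, among them Upk3b (4.75 ± 0.90), Lrrn4 (4.26 ± 0.87), Bnc1 (4.18 ± 0.27) and Wt1 (3.78 ± 0.76; SE, n = 3 per group; limma adjusted p = 0.0378, 0.0454, 0.00257 and 0.0436), and Calb2 was well above background on 0 arrays. Upk1b overlapped between the groups (3.29 ± 2.04; SE, n = 3 per group; limma adjusted p = 0.401). Krt19, which is also on the epithelial list, had a change of -0.28 (limma adjusted p = 0.742). In wild type, Bnc1 was well above background on 1 of 3 arrays and Upk3b and Lrrn4 on 2. Their changes are thus set against values that are partly not well above background. The count of 5 became 1 without knockout replicate 2, knockout replicate 3 or wild-type replicate 3, and 3 without knockout replicate 1 or with quantile, cyclic loess, detected-probe scaling or the authors' values. Their summed scaled signal, with 1 the 75th percentile, ran from 40.9 to 112 in knockout and from 2.05 to 16.9 in wild-type arrays. Of 9 smooth muscle and pericyte markers 2 rose, Myh11 and Des, with a summed signal of 741 to 921 in knockout and 179 to 1093 in wild-type arrays. Changes were positive for 7 of the 9 and negative for 2, Notch3 (-1.31) and Cspg4 (-1.22), neither past the threshold. Of 10 fibroblast markers 2 rose, Col1a1 and Col1a2, with sums of 2040 to 2237 in knockout and 1192 to 2052 in wild-type arrays. That count was 1 with quantile, cyclic loess, detected-probe scaling or the authors' values, and 4 with normexp. Without wild-type replicate 2 it was 5, of which 4 were higher and 1 lower. Of 11 lung epithelial, 7 endothelial and 7 leukocyte markers 0 passed. With slide as a block 1 epithelial marker did, Krt18, a keratin, at 2.55 (limma adjusted p = 0.0468). Of 6 cardiac and skeletal muscle markers 2 rose, Tnni3 and Des, and Des is counted on both muscle lists. In wild type, Des was well above background on 1 of 3 arrays and Tnni3 and Myh11 on 2. With probes detected on all 6 arrays, 0 of 7 smooth muscle and pericyte and 0 of 4 cardiac and skeletal muscle markers passed. With slide as a block the 2 fibroblast markers and Tnni3 did not pass, and of the mesothelial markers Lrrn4 did not (limma adjusted p = 0.0528) while Gpm6a did (0.0447, against 0.0509 without the block). Without knockout replicate 3 or wild-type replicate 3, 0 fibroblast, smooth muscle or cardiac and skeletal muscle markers passed. Since these are whole cultures, fewer cells of a type and less RNA per cell cannot be told apart, and the part of these markers in the values of Gata6, Tcf21 or the T-box genes was not tested.

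The gene with the smallest p among the 9 was Tbx4. Over the 6 arrays, Il18, Zswim1 and Kremen1 had the pattern most like it among 12437 other genes with complete values, with Pearson correlations of 0.993, 0.992 and 0.990, given as a description.

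**Figure D5:**
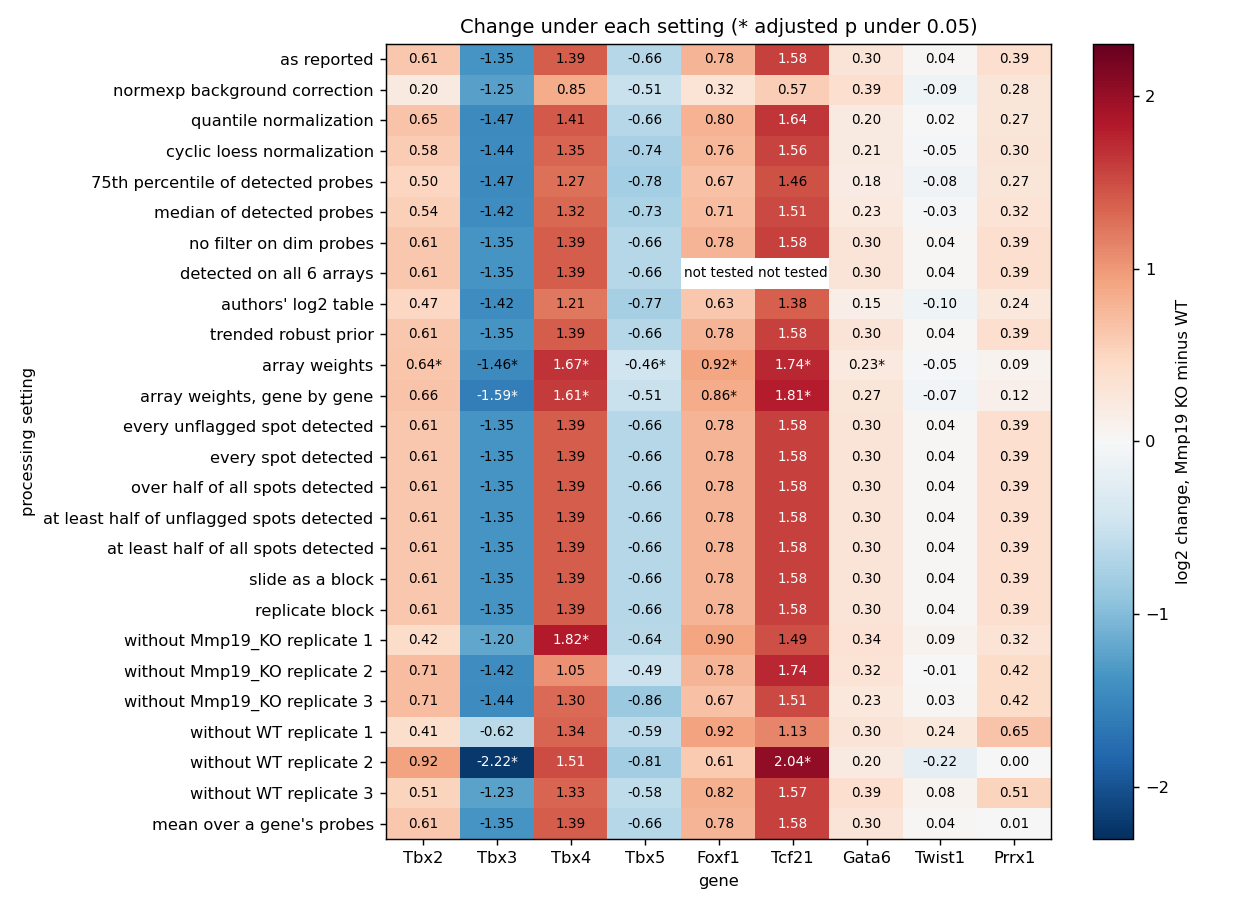
Log2 change, Mmp19 KO minus WT, of the 9 tested factors (columns) under each processing setting (rows); colour and printed number are the change, and an asterisk marks an adjusted p under 0.05. Tbx4, Tcf21 and Foxf1 are positive and Tbx3 and Tbx5 negative in every row where they were tested, and Twist1 lies near 0 with either sign; the asterisks of the array weights rows are those of 7 and 4 factors.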

How the data were processed

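Per the labels' protocols, 0.5 µg of RNA per culture was labelled with Cy3 for Agilent arrays. Per the file headers, Agilent Feature Extraction 10.7.3.1 gave the deposited spot intensities, with background subtracted, and the flags (coded other: 0 or 1 per spot); the submitters' processing notes name version 9.1, and the array design used build mm9. The authors also deposited log2 values for 35844 probes, with column medians of 5.51 to 5.76 and a lowest correlation of 0.996 with the log2 intensity of the same array; the sources used here do not give their normalization or centring, and they served as an alternative.

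Control spots and outlier flags were left out and spots of 1 probe averaged. The log2 processed signal minus each array's 75th percentile was fitted with limma 3.58.1 in R 4.3.3 (lmFit, eBayes, two-sided, Benjamini-Hochberg). The fit covered 24214 probes, those detected well above background throughout 1 or both groups, and 1124 passed at 0.05. A probe with several spots counted as detected when the share of its unflagged spots that were was above 0.5. This definition was taken among 6, after the data were seen, because it gave the same number of probes as an earlier analysis of these data; the 6 tested 24203 to 24242 probes, of which 1113 to 1127 passed, and 0 of the factors under each. Probes were named by RefSeq accession through the GRCm38.p6 table (26413 of 55681). A gene was its brightest tested probe. "At least" folds set the bright group's mean against a floor for the dim group: on each array the lowest signal of any detected probe, or the probe's own where higher, then averaged. The members, lists and tests were chosen with earlier results of these data known. Named were Mmp19, the 10 factors, up to 4 genes of largest change past the threshold per list or 2 of smallest p, and the 3 genes most correlated with the factor of smallest p. Some genes that this rule names are not reported here.

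Each slide and scan held the same-numbered knockout and wild-type array, so slide and replicate number give 1 block. Deviations from group means correlated at 0.096, -0.021 and 0.210 within numbers, so arrays were not treated as pairs. The fit was tested on simulated data.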

Additional observations from a re-analysis of the deposited data

How the results depend on the processing

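The count of factors past the threshold was 0 with normexp, quantile and cyclic loess normalization, both scalings to detected probes, both other filters, the authors' log2 values, the trended robust prior, the mean over a gene's probes and the slide or replicate block. It was 7 with array weights by limma's default, the alternative planned, and 14904 probes then passed; that estimate stopped before it converged and gave weights from 0.16 (wild-type replicate 2) to 12.03 (wild-type replicate 3). Weights estimated gene by gene, tried after that result was seen, gave 4 factors and 5068 probes, with weights from 0.292 (wild-type replicate 2) to 4.86 (knockout replicate 3). When 1 array was left out, 0 to 2 factors passed. The 1124 probes became 633 with normexp, 113 with no filter, 650 with probes detected on all 6 arrays, 385 with the slide block, which is also the replicate block, and 107 to 1716 with 1 array left out. The block changed no call among the factors. Signs held in all alternatives run for the other 8 tested factors. For Twist1 the change was -0.093 with normexp, -0.051 with cyclic loess, -0.082 and -0.035 with the 75th percentile and median of detected probes, -0.098 with the authors' values, -0.048 with default and -0.069 with gene-by-gene array weights, and -0.22 to 0.24 with 1 array left out, negative without knockout replicate 2 (-0.011) or wild-type replicate 2. Scaled to the 75th percentile of detected probes, 51.9% of the probes past the threshold were higher in the knockout, against 62.0% as reported, and the median change of all genes was -0.034 there and -0.045 in the authors' values, against 0.083. The causes were not tested.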
